A study of Mus musculus with 8 samples.

Results

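The interferon response and antigen presentation genes followed here are 34 genes of the mouse hippocampus, taken by name from a list of interferon-induced and major histocompatibility complex (MHC) class I genes. All 34 were among the 24421 genes of the count tables, and each was measured in CPM, the reads counted for a gene per 1000000 reads counted in its library. The choice of the list used no measured value, although earlier results of these data were known when it was drawn up. RNA was sequenced from hippocampi of wildtype C57BL/6J offspring that the labels call male. Their dams had been injected intraperitoneally with dexamethasone, a synthetic glucocorticoid, at 1 mg/kg a day for 5 days from 14.5 days post coitum (the group named IUGR, for intrauterine growth retardation), or with the same volume of normal saline (the group named NS). Tissue was collected at postnatal day 3 or at week 8, and every one of the 4 groups has 2 libraries, so n = 2 per group throughout. The labels do not say whether the libraries came from separate animals or litters, so p-values measure the spread between these libraries, which at week 8 may be technical. In the model of all 8 libraries the spread of each gene was estimated over both ages together.

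Interferons are secreted signals of infection that bind receptors on the cell surface and act through Janus kinases and STAT proteins. Type I interferons assemble a complex that includes Stat2 and Irf9 and binds a DNA element called the interferon-stimulated response element (ISRE), while interferon gamma acts on a different element, the gamma-activated site (GAS). The genes switched on in this way encode sensors of foreign RNA and DNA, proteins that block viral replication, GTPases that attack intracellular pathogens, and the class I pathway, which cuts proteins into peptides and shows them on the cell surface. In brain, basal levels of these genes are low, and microglia, endothelium and cells of the brain's borders are among the cells known to express them.

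Some libraries stood apart from the others or went against their labels. Total counts ran from 13030277 to 18993050 per library. At postnatal day 3, Xist, which is transcribed from an inactive X, reached 4998 and 5130 counts in replicate 2 of NS and of IUGR but 4 and 81 counts in replicate 1, although all are labelled male. Counts of 4 Y-linked genes were 34 and 74 in those replicate 2 libraries and 3783 and 5364 in replicate 1, so the libraries of a group at this age were not repeats of the same RNA. Both replicate 2 libraries of this age thus carried a female pattern against their label. Every library of week 8 carried a male one (Xist at most 50 counts, Y-linked sum at least 2023). At week 8, Rpph1, the RNA of ribonuclease P, had 0 and 2 counts in replicate 2 of NS and of IUGR and between 872768 and 1119905 counts in replicate 1 and in every library of postnatal day 3. Values within each replicate number are therefore given beside the pooled ones. The 8 hippocampal neuron markers examined were detected in every library, with summed levels between 647.7 and 880.6 CPM at postnatal day 3. At week 8 their sums split by replicate number. They were 532.5 CPM in NS and 444 CPM in IUGR in replicate 1, against 1107 and 1110 CPM in replicate 2.

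The DNA just before the start of several members shows the element through which type I interferon acts. RefSeq promoter windows of assembly GRCm38.p6, from 250 bases before to 50 bases after the start, were found for 28 of the 34 members, in 33 windows. The ISRE core was searched as GAAANNGAAA or, on the other strand, TTTCNNTTTC. It occurred in 15 of the 33 windows (45.5%), against 3.44% of 32851 windows over all genes. A GAS core, TTCNNNGAA on either strand, occurred in 6 of the 33 windows (18.2%), against 8.3% over all genes. The 250 bases before the start are printed for 5 members that carry the ISRE core in this stretch and whose levels are described in what follows, each 5′ to 3′ on the gene's strand, with the matches in capitals. They are Ifit3 (chr19:34583279-34583528, plus strand), Bst2 (chr8:71537473-71537722, minus strand), Rsad2 (chr12:26456453-26456702, minus strand), Isg15 (chr4:156200819-156201068, minus strand) and B2m (chr2:122147437-122147686, plus strand).
Ifit3: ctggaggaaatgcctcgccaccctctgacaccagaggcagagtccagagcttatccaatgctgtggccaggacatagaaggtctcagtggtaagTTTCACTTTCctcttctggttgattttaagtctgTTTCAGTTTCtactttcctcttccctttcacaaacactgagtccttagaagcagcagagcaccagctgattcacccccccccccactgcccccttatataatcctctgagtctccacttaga
Bst2: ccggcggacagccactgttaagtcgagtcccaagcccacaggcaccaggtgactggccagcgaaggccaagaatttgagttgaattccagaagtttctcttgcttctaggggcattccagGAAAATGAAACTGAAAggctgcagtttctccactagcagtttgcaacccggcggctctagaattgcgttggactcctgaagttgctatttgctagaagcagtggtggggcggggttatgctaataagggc
Rsad2: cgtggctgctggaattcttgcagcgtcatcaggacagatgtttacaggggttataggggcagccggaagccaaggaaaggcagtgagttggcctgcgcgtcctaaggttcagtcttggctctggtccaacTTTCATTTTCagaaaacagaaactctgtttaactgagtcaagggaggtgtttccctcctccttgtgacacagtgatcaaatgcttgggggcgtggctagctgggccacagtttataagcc
Isg15: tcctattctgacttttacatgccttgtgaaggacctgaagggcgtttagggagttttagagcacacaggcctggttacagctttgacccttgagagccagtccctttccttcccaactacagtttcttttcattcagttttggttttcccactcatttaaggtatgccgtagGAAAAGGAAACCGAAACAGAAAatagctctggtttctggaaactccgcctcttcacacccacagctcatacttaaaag
B2m: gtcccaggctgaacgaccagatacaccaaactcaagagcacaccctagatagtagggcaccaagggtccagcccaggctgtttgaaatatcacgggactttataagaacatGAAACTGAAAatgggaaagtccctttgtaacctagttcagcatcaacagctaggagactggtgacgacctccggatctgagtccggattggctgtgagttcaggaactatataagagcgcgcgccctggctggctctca
The matches of Ifit3 begin 156 and 122 bases before the start and that of Rsad2 begins 120 bases before it. In Bst2 the matches at 130 and 124 bases overlap, and in Isg15 a run of 3 overlapping matches begins 78, 72 and 66 bases before the start. The match of B2m lies 139 bases before its start. A match describes these letters only and does not show that a factor binds there.

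Most members were at low levels, above all in the newborn hippocampus. At postnatal day 3 the mean over the 4 libraries was under 1 CPM for 13 of the 34 members and at least 10 CPM for 3. At week 8 it was under 1 CPM for 5 members and at least 10 CPM for 6. Where a gene has no count, a level of up to 3 counts is allowed, or 0.158 to 0.23 CPM by library, a limit that covers counting error only. Summed over the 34 members, the libraries held 165.9 and 149.8 CPM in the NS libraries against 129.4 and 129.5 CPM in the IUGR libraries at postnatal day 3 (replicates 1 and 2, in this order throughout). The sums were 412.2 and 264.5 CPM in the NS libraries against 281.1 and 239.7 CPM in the IUGR libraries at week 8. Both IUGR sums were below both NS sums at postnatal day 3, whereas at week 8 replicate 1 of IUGR lay above replicate 2 of NS. The standing of library NS week 8 replicate 1 is seen across the list: it held the highest of the 8 values for 27 members (79.4%), against 14.5% of all tested genes.

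**Figure D1:**
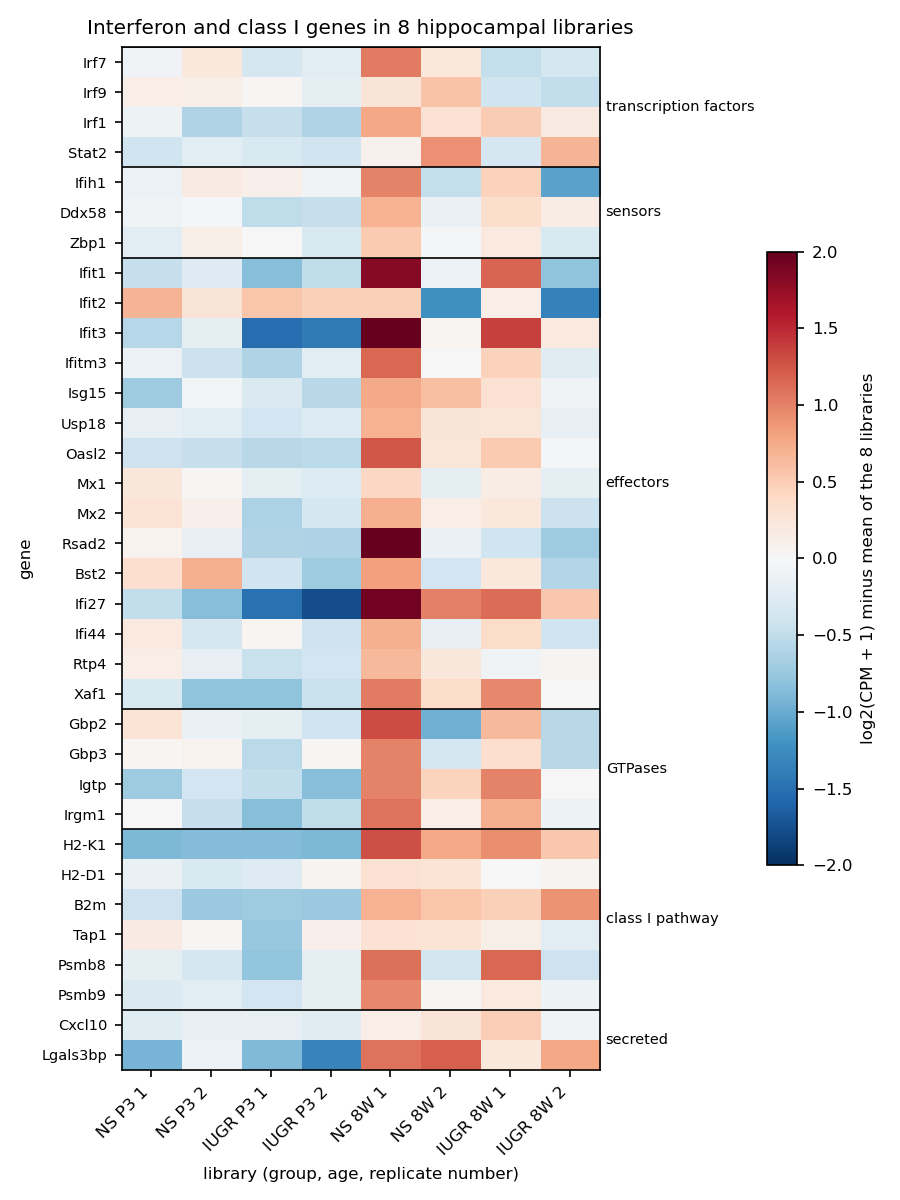
Level of each of the 34 members (rows, grouped by role) in each of the 8 libraries (columns, with P3 for postnatal day 3 and 8W for week 8), as log2(CPM + 1) minus the gene's mean over the 8 libraries; red is above and blue below that mean, and values beyond 2 in either direction take the end colour. The column of NS week 8 replicate 1 is the reddest, with the highest value for 27 of the 34 members, and the postnatal day 3 columns are mostly blue.

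Per length of transcript, B2m, the light chain shared by class I molecules, was the most abundant member in all 4 groups. Its mean was 37.4 and 33.4 RPKM, which is CPM divided by the gene's length in kilobases, in NS and IUGR at postnatal day 3 and 86.6 and 91.4 RPKM at week 8. In NS at postnatal day 3 the next members were Ifi27 (9.57 RPKM), Bst2 (7.39 RPKM), Ifitm3 (6.44 RPKM) and Ifit2 (5.77 RPKM), and the library ranges of each neighbouring pair among these 4 overlapped. In IUGR at that age Bst2 stood lower, with 2.82 RPKM, and Ifi27 had 4.44 RPKM, behind Ifit2 and Ifitm3. At week 8 the order began with B2m, Ifi27, H2-K1, Ifitm3 and Lgals3bp in both groups, with Ifi27 at 47.5 RPKM in NS and 29.2 RPKM in IUGR and H2-K1 at 17.2 and 13.8 RPKM.

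IUGR was first compared with NS at postnatal day 3, which asks how the hippocampus of the newborn differed after prenatal dexamethasone. Many interferon-induced effectors and GTPases were lower in both IUGR libraries, and none of the 6 class I members was. Both IUGR libraries were below both NS libraries for 16 of the 34 members (47.1%), against 16.6% of all tested genes. None of the 34 had both IUGR libraries above both NS libraries, against 19.7% of all tested genes. By role, these 16 were 10 of the 15 effectors, 3 of the 4 GTPases, 2 of the 4 transcription factors, 1 of the 3 sensors and none of the 6 class I pathway genes or the 2 secreted proteins.

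No member passed edgeR's quasi-likelihood test at postnatal day 3 with an adjusted p under 0.05, where the Benjamini-Hochberg adjustment ran over 15999 genes, and 0.0% of all genes did. The count filter left 31 members in the test, all but Zbp1, Mx1 and Cxcl10. The spread was estimated over both ages together, so the errors given for postnatal day 3 also carry the spread at week 8. The common coefficient of variation between libraries in edgeR was 0.3744 over all libraries. It was 0.1536 at postnatal day 3 alone and 0.4985 at week 8 alone. At an unadjusted p under 0.05 there was 1 member, Ifi27, and 96 genes in all. The fitted log2 difference, IUGR minus NS, was below 0 for 29 of the 31 tested members, with a median of -0.39 against 0.01 over all tested genes, and ran from -2.30 to 0.14. DESeq2 on all libraries also called no member, with 4 at an unadjusted p under 0.05. DESeq2 on the 4 libraries of this age alone called 60 genes (0.3%) and no member, with 3 members at an unadjusted p under 0.05.

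Among the effectors, Ifi27, an interferon-induced mitochondrial and nuclear envelope protein, had 11.4 and 8.73 CPM in the NS libraries against 5.22 and 4.13 CPM in the IUGR libraries at postnatal day 3. The groups did not overlap, and the 2 pairs of libraries with the same number differed to a like degree. The log2 difference was -1.11 ± 0.393 (SE) with an unadjusted p of 0.0273 and an adjusted p of 1.0 in edgeR's quasi-likelihood test. In DESeq2 on this age alone its adjusted p was 0.255, the smallest of any member. Bst2, also called tetherin, holds budding viruses at the cell membrane. It had 4.82 and 6.51 CPM in the NS libraries against 2.5 and 1.82 CPM in the IUGR libraries, without overlap, a log2 difference of -1.39 ± 0.607 (SE, unadjusted p of 0.0577, edgeR). Ifit3, a partner of the RNA-binding Ifit proteins, had 2.27 and 3.25 CPM in the NS libraries against 0.68 and 0.827 CPM in the IUGR libraries. Every IUGR value was under every NS value, and the log2 difference was -1.87 ± 0.851 (SE, unadjusted p of 0.0663, edgeR). Ifit3 has a close neighbour copy, Ifit3b, with 0.275 and 0.571 CPM in the NS libraries against 0.17 and 0.276 CPM in the IUGR libraries, and how reads were split between them is not given in the sources used here. Rtp4, a receptor chaperone induced by interferon, had 1.86 and 1.31 CPM in the NS libraries against 0.907 and 0.992 CPM in the IUGR libraries, with a log2 difference of -0.73 ± 0.453 (SE). The direction is that of the other effectors with non-overlapping libraries, each lower in IUGR, though Ifi27 and Bst2 were among the more abundant members.

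The other effectors at this age were mostly under 1 CPM. Mx2, of the family of dynamin-like antiviral GTPases and annotated as a polymorphic pseudogene in the mouse reference, had 0.963 and 0.742 CPM in the NS libraries against 0.0567 and 0.276 CPM in the IUGR libraries, which are 14, 13, 1 and 5 counts. Its log2 difference of -2.30 ± 0.991 (SE, unadjusted p of 0.0552, edgeR) was the lowest among the members and rests on few reads. Rsad2, also called viperin, which makes a chain-terminating nucleotide, had 1.31 and 0.971 CPM in the NS libraries against 0.454 and 0.441 CPM in the IUGR libraries. Ifit1, Usp18, Oasl2 and Mx1 were likewise lower in both IUGR libraries than in both NS libraries. Mx1 was outside the test with 6 and 4 counts in the NS libraries against 1 and 0 in the IUGR libraries. The effectors whose libraries overlapped at postnatal day 3 were Ifit2, Ifitm3, Isg15, Ifi44 and Xaf1. Isg15, the ubiquitin-like modifier, had 0 and 10 counts in the NS libraries against 6 and 2 in the IUGR libraries, and the 0 allows up to 0.206 CPM.

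The GTPases that guard cells against intracellular pathogens gave small differences. Irgm1 had 5.23 and 3.54 CPM in the NS libraries against 2.5 and 3.42 CPM in the IUGR libraries, a log2 difference of -0.57 ± 0.51 (SE). Gbp2 had 4.06 and 2.85 CPM in the NS libraries against 2.72 and 2.21 CPM in the IUGR libraries, a difference of -0.49 ± 0.941. In both genes the nearest libraries of the groups almost touched. With single libraries left out the difference ran from -0.83 to -0.28 for Irgm1 and from -0.72 to -0.23 for Gbp2. Gbp3 did not overlap either, and Igtp did.

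Of the sensors, Ddx58 encodes RIG-I, the sensor of uncapped viral RNA. It had 5.02 and 5.25 CPM in the NS libraries against 3.46 and 3.58 CPM in the IUGR libraries, a log2 difference of -0.55 ± 0.373 (SE). Its replicates lay close together in both groups, and the groups did not overlap. Ifih1, or MDA5, the sensor of long double-stranded RNA, overlapped, with 3.85 and 4.91 CPM in the NS libraries against 4.65 and 4.02 CPM in the IUGR libraries. Zbp1, a sensor of left-handed nucleic acids, had at most 6 counts in any library of this age.

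The transcription factors that carry the signal were split. Irf7, the amplifier of the type I response, had 0.963 and 1.37 CPM in the NS libraries against 0.624 and 0.772 CPM in the IUGR libraries. Irf9, whose exons overlap those of Rnf31, had 8.94 and 8.85 CPM in the NS libraries against 8.22 and 6.89 CPM in the IUGR libraries. Both were lower in IUGR without overlap, by log2 differences of -0.74 ± 0.593 and -0.24 ± 0.268 (SE), each smaller than 2 of its standard errors. Irf1 and Stat2 overlapped, with differences of -0.25 and -0.04. The secreted glycoprotein Lgals3bp, a binder of galectins, had 3.58 and 7.02 CPM in the NS libraries against 3.74 and 2.48 CPM in the IUGR libraries. The log2 difference of Lgals3bp was -0.77 ± 0.429 (SE), and it was 0.07 with both libraries numbered 2 left out, so the lower value came from that pair alone.

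None of the 6 class I members separated the groups at postnatal day 3. H2-K1, a class I heavy chain, had 6.6 and 6.79 CPM in the NS libraries against 6.75 and 6.61 CPM in the IUGR libraries, with a log2 difference of -0.00 ± 0.276 (SE). H2-D1, the other classical heavy chain of this strain, had 6.6 and 5.77 CPM in the NS libraries against 6.01 and 7.66 CPM in the IUGR libraries. B2m had 35.9 and 28.2 CPM in the NS libraries against 29.0 and 28.3 CPM in the IUGR libraries. The groups overlapped in each of these 3 genes, as they did in the peptide transporter subunit Tap1 and the immunoproteasome subunits Psmb8 and Psmb9. Whether the class I genes differed from the effectors in their response was not tested.

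**Figure D2:**
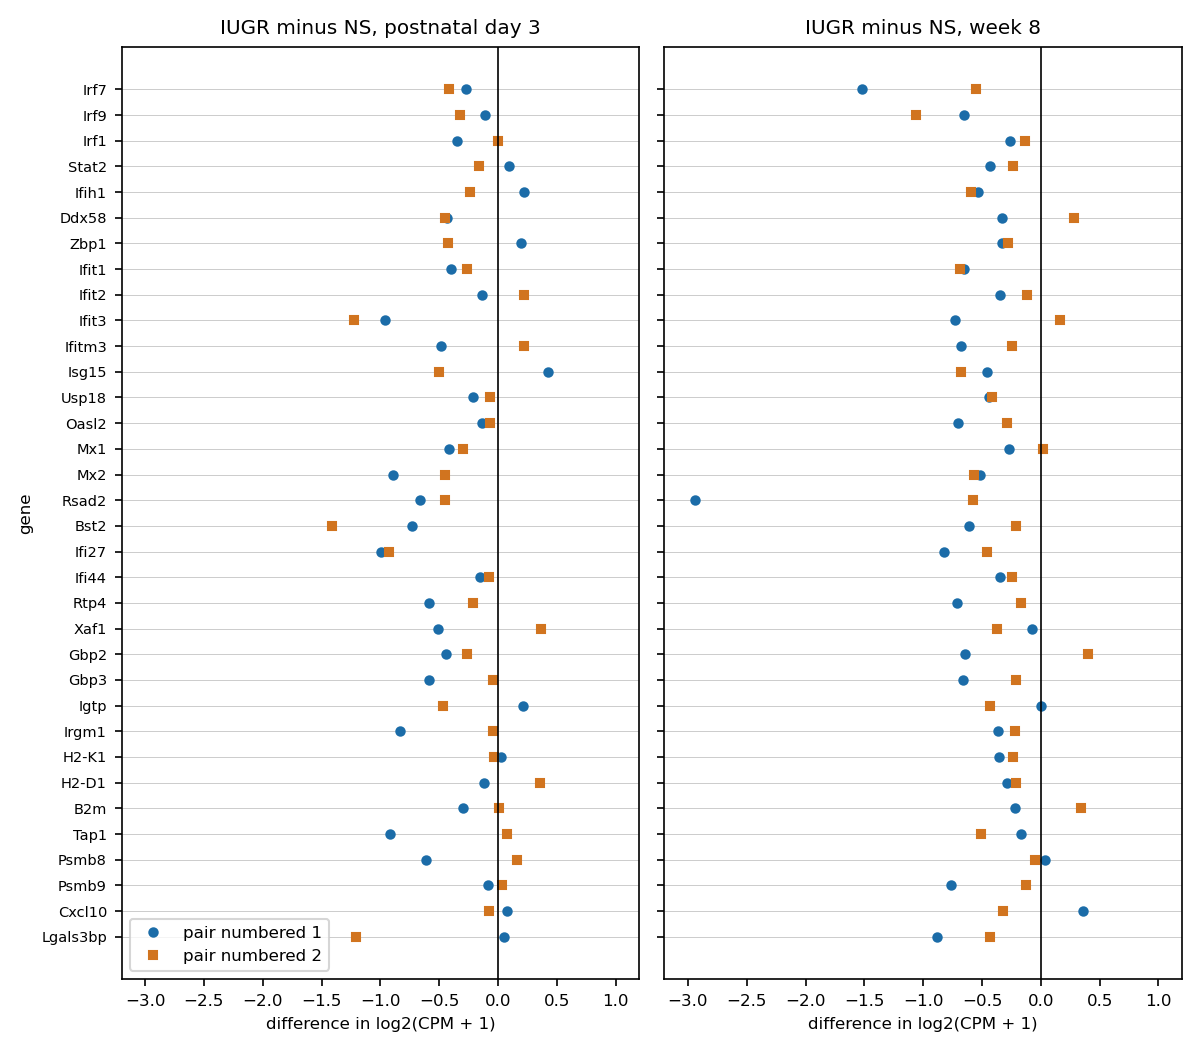
Difference IUGR minus NS in log2(CPM + 1) for each member (rows) within the libraries numbered 1 (blue circles) and numbered 2 (orange squares), at postnatal day 3 (left) and week 8 (right); the vertical line marks 0. Both points lie left of 0 for 17 of the 34 members at postnatal day 3 and for 27 at week 8, and the farthest is Rsad2 in the pair numbered 1 of week 8.

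Taken within the replicate numbers, the lower levels at postnatal day 3 appeared in both pairs. The median member difference in log2(CPM + 1) was -0.32 in the pair numbered 1, where 26 of the 34 members were lower in IUGR, and -0.19 in the pair numbered 2, where 25 were. The corresponding medians over all tested genes were -0.01 and 0.03. Both pairs were lower for 17 of the 34 members, against 24.1% of all tested genes.

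Markers of some other cell types were also lower in IUGR at postnatal day 3. Over all tested genes, 16.6% had both IUGR libraries below both NS libraries and 19.7% had both above. Of 7 border macrophage markers, 6 had both IUGR libraries below both NS libraries, and their summed level was 103.4 and 90.89 CPM in the NS libraries against 43.2 and 63.66 CPM in the IUGR libraries. Of 12 markers of leptomeninges and fibroblasts, 12 did so, with sums of 1353 and 1146 CPM in the NS libraries against 506.2 and 567.1 CPM in the IUGR libraries. Of 12 endothelial markers, 9 did so, with sums of 186.0 and 169.4 CPM in the NS libraries against 153.9 and 137.2 CPM in the IUGR libraries, and of 8 mural cell markers, 7 did so. Of 12 microglial markers, 3 did so and 2 had both IUGR libraries above, with sums of 183.2 and 143.5 CPM in the NS libraries against 139.0 and 167.7 CPM in the IUGR libraries. No marker of these 5 lists was at 0. Of 8 astrocyte markers, 4 had both IUGR libraries below, with sums of 1624 and 1246 CPM in the NS libraries against 1254 and 1301 CPM in the IUGR libraries. The 10 choroid plexus markers differed widely within the groups, with 0 of 10 separating them. They summed to 89.55 and 6353 CPM in the NS libraries against 3260 and 456.9 CPM in the IUGR libraries. The part of any of these lists in the lower level of the members was not tested, and in these bulk libraries fewer cells of a type and less RNA per cell cannot be told apart.

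**Figure D3:**
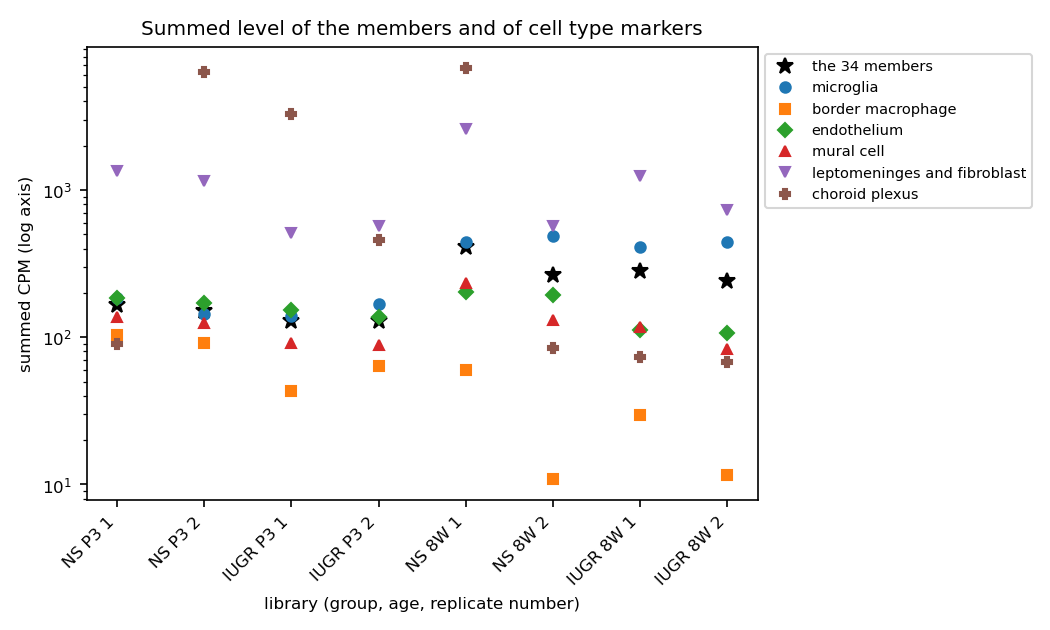
Summed CPM (log axis) of the 34 members and of 6 lists of cell type markers in each of the 8 libraries. At postnatal day 3 both IUGR libraries lie below both NS libraries for the members and for the border macrophage, endothelial, mural and leptomeningeal lists. The choroid plexus list runs from 89.55 to 6353 CPM at that age. At week 8 it stands at 6774 CPM in NS replicate 1 and between 67.6 and 84.77 CPM in the other 3 libraries.

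At week 8 IUGR was compared with NS in the same way, to see whether the adult hippocampus differed. The members were again mostly lower in IUGR, with Rsad2, Irf7 and Irf9 farthest from 0 relative to their errors, but 1 NS library set much of the size. Both IUGR libraries were below both NS libraries for 9 of the 34 members (26.5%), against 9.01% of all tested genes. These were Irf7, Irf9, Isg15, Usp18, Rsad2, Rtp4, H2-D1, Tap1 and Lgals3bp. None of the 34 had both IUGR libraries above both NS libraries, against 4.08% of all tested genes.

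No member passed edgeR's quasi-likelihood test with Benjamini-Hochberg adjustment at week 8, and 0.0% of all genes did. At an unadjusted p under 0.05 there were 3 members, Irf7, Irf9 and Rsad2, and 161 genes in all. The fitted log2 difference was below 0 for 29 of the 31 tested members, with a median of -0.52 against 0.02 over all tested genes, and ran from -3.55 to 0.15. DESeq2 on all libraries called no member, with 3 at an unadjusted p under 0.05. DESeq2 on this age alone called 1 gene (0.00511%) and no member, with 1 member at an unadjusted p under 0.05.

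Among the transcription factors, Irf7 had 3.22 and 1.37 CPM in the NS libraries against 0.473 and 0.617 CPM in the IUGR libraries at week 8. The groups did not overlap, with a log2 difference of -1.97 ± 0.61 (SE), an unadjusted p of 0.0155 and an adjusted p of 1.0 in edgeR's quasi-likelihood test. Without NS replicate 1 the difference of Irf7 was -1.26. Exons of Irf7 overlap those of Phrf1 on the opposite strand, which had between 40.0 and 64.7 CPM, and the strand setting of the counting is not given in the sources used here. Irf9, the DNA-binding partner of Stat2, had 9.82 and 12.4 CPM in the NS libraries against 5.88 and 5.42 CPM in the IUGR libraries. Its log2 difference was -0.90 ± 0.271 (SE, unadjusted p of 0.0136, edgeR), and its higher NS library was replicate 2, unlike most members. Exons of Irf9 overlap those of Rnf31 on the same strand, which leaves its value uncertain. Rnf31 had 15.8 and 29.6 CPM in the NS libraries against 13.1 and 23.6 CPM in the IUGR libraries. Irf1 and Stat2 overlapped, with differences of -0.16 and -0.25. Stat2 separated by replicate number instead, with 16.4 and 29.8 CPM in the NS libraries against 11.9 and 25.1 CPM in the IUGR libraries.

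Among the effectors, Rsad2 had 11.9 and 1.0 CPM in the NS libraries against 0.676 and 0.343 CPM in the IUGR libraries at week 8. A single library, NS replicate 1, stood 11.9-fold above its own replicate. The remaining 3 libraries lay between 0.343 and 1.0 CPM, with NS replicate 2 above both IUGR libraries. The log2 difference was -3.55 ± 1.12 (SE, unadjusted p of 0.0172, edgeR), the lowest of any member, and -0.91 without NS replicate 1. DESeq2 on this age alone, blocked by replicate number, gave -2.95 ± 0.823 (SE) with an adjusted p of 0.421. Isg15 had 1.76 and 1.47 CPM in the NS libraries against 1.01 and 0.548 CPM in the IUGR libraries, a difference of -0.97 ± 1.08 (SE). Usp18, the protease that removes Isg15 from proteins and damps the receptor, had 1.92 and 1.16 CPM in the NS libraries against 1.15 and 0.617 CPM in the IUGR libraries, a difference of -0.71 ± 0.565 (SE). In Usp18 the second NS library and the first IUGR library were nearly equal. Leaving out single libraries moved Isg15 to between -1.48 (without IUGR replicate 1) and -0.59 (without IUGR replicate 2). Usp18 moved to -1.23 without IUGR replicate 1 and to -0.33 without NS replicate 1 or without IUGR replicate 2.

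Other members had their highest value in NS replicate 1 and overlapped. Ifit1, which binds viral RNA caps, had 6.83 and 1.05 CPM in the NS libraries against 3.99 and 0.274 CPM in the IUGR libraries, a log2 difference of -0.79 ± 1.22 (SE). Oasl2, of the oligoadenylate synthetase family, had 5.6 and 2.32 CPM in the NS libraries against 3.04 and 1.71 CPM in the IUGR libraries, a difference of -0.65 ± 0.542 (SE). Psmb9, an immunoproteasome subunit whose exons overlap those of Tap1, had 2.53 and 0.842 CPM in the NS libraries against 1.08 and 0.686 CPM in the IUGR libraries, a difference of -0.83 ± 0.675 (SE). Without NS replicate 1 these differences turned to 1.07, 0.10 and 0.13, and Ifit1 also turned, to 0.12, without IUGR replicate 2. In these 3 genes the libraries of the groups interleaved. Within the same-numbered pairs, however, each was lower in IUGR. The differences in log2(CPM + 1) were -0.65 and -0.688 for Ifit1, -0.708 and -0.289 for Oasl2, and -0.763 and -0.128 for Psmb9. Leaving out a single library leaves the replicate numbers unequal between the groups.

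The class I members other than Psmb9 gave small differences at week 8, with fitted log2 values from -0.34 for Tap1 to 0.15 for B2m. Tap1 had 4.45 and 4.42 CPM in the NS libraries against 3.855 and 2.81 CPM in the IUGR libraries, without overlap. H2-D1 had 9.29 and 9.06 CPM in the NS libraries against 7.44 and 7.68 CPM in the IUGR libraries, which did not overlap, with a log2 difference of -0.20 ± 0.265 (SE). H2-K1 had 33.7 and 23.1 CPM in the NS libraries against 26.1 and 19.5 CPM in the IUGR libraries, and B2m 78.0 and 70.7 CPM in the NS libraries against 67.0 and 89.9 CPM in the IUGR libraries, both with overlap. Lgals3bp had 17.6 and 19.1 CPM in the NS libraries against 9.06 and 13.9 CPM in the IUGR libraries, a difference of -0.60 ± 0.416 (SE). Cxcl10, a chemokine that draws T cells, had 4 and 8 counts in the NS libraries against 10 and 2 in the IUGR libraries and was outside the test. None of the 4 GTPases separated the groups at this age.

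Within the replicate numbers at week 8 the median member difference in log2(CPM + 1) was -0.45 in the pair numbered 1, with 32 of the 34 members lower in IUGR. It was -0.24 in the pair numbered 2, with 29 lower, against -0.05 and -0.04 over all tested genes. Both pairs were lower for 27 members (79.4%), against 30.5% of all tested genes. The replicate numbers themselves differed by more. The median of replicate 2 minus replicate 1 was -0.74 in NS, with 30 members lower in replicate 2, and -0.53 in IUGR, with 28 lower. The corresponding medians at postnatal day 3 were -0.05 and -0.02. The fitted median of -0.52 became 0.12 without NS replicate 1, with 12 of 32 members below 0, and -1.01 without NS replicate 2. It was -1.15 without IUGR replicate 1 and -0.08 without IUGR replicate 2. Leaving out both libraries numbered 1 gave -0.25 and leaving out both numbered 2 gave -0.65.

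Markers of other cell types at week 8 moved in part with NS replicate 1, in part with the replicate number in both groups, and in part with the group. Over all tested genes, 9.01% had both IUGR libraries below both NS libraries and 4.08% had both above. The 10 choroid plexus markers summed to 6774 CPM in NS replicate 1, 84.77 CPM in NS replicate 2, and 73.78 and 67.6 CPM in IUGR. The leptomeningeal list summed to 2609 and 572.5 CPM in the NS libraries against 1245 and 732.1 CPM in the IUGR libraries, with 0 of 12 markers separating the groups. Of the 12 endothelial markers, 10 had both IUGR libraries below both NS libraries, with sums of 204.1 and 193.1 CPM in the NS libraries against 111.7 and 106.1 CPM in the IUGR libraries, and 1 had both above. Of the 8 mural cell markers 6 had both IUGR libraries below and 1 had both above, with sums of 234.8 and 131.2 CPM in the NS libraries against 116.7 and 83.5 CPM in the IUGR libraries. The border macrophage markers summed to 59.86 and 10.85 CPM in the NS libraries against 29.48 and 11.65 CPM in the IUGR libraries, higher in replicate 1 of both groups, with 0 of 7 separating the groups. The erythrocyte list, of which Hba-a1, Hba-a2, Hbb-bs and Hbb-bt were at 0 in every library, summed to 78.59 and 0.948 CPM in the NS libraries against 12.65 and 0.96 CPM in the IUGR libraries, again higher in replicate 1. Microglial markers summed to 440.7 and 484.1 CPM in the NS libraries against 408.6 and 443.1 CPM in the IUGR libraries, with 0 of 12 separating the groups. The 6 listed T and NK cell markers in the tables summed to at most 1.612 CPM in any library, and Nkg7 was at 0 in all 8. No marker of the choroid plexus, border macrophage, leptomeningeal, endothelial, mural or microglial lists was at 0, and their part in the members' values was not tested.

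**Figure D4:**
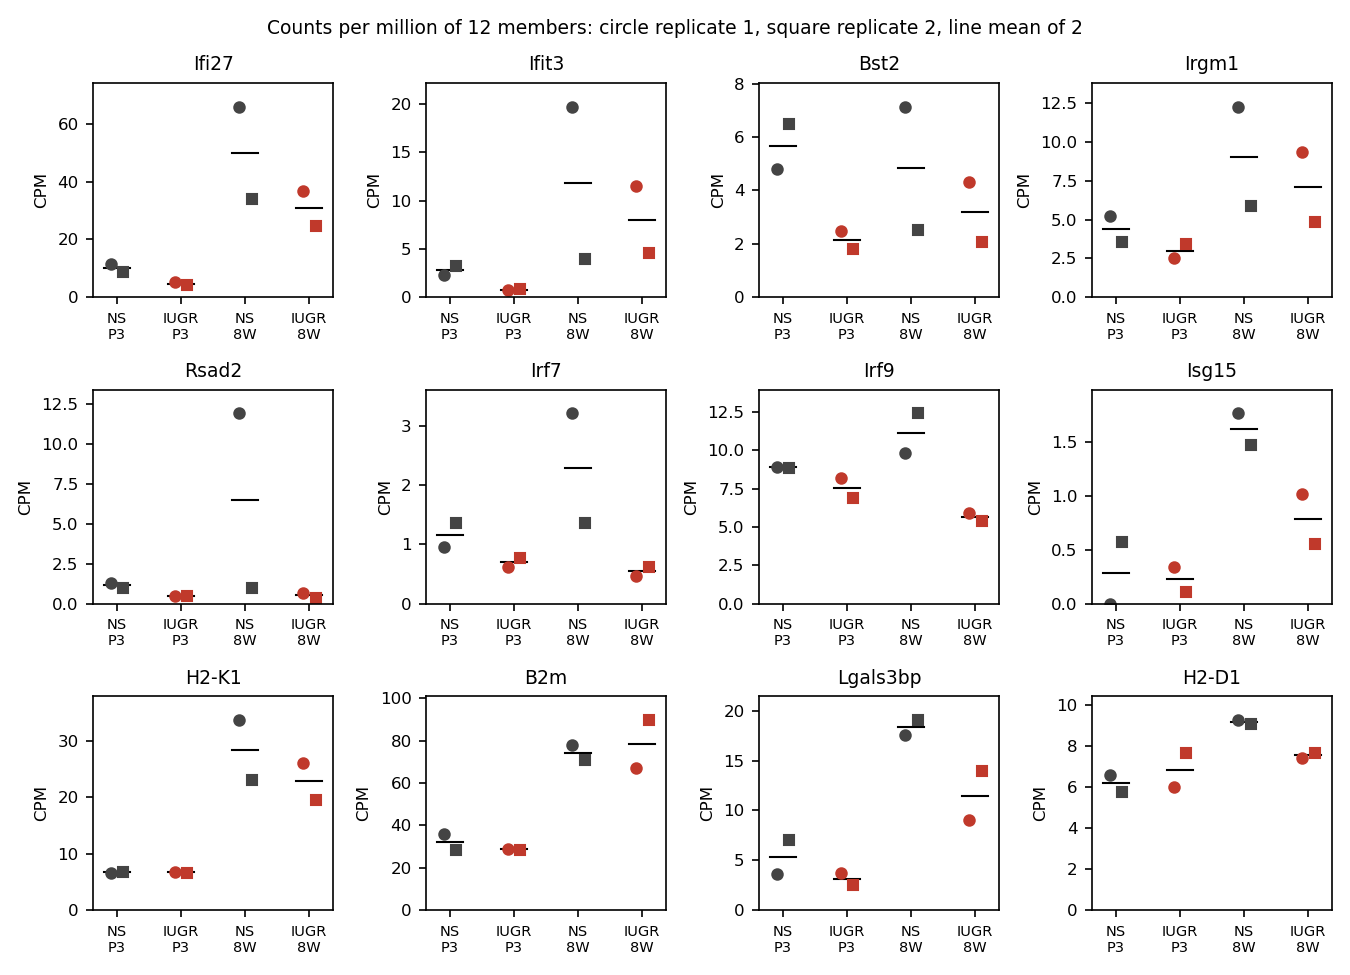
CPM of 12 members in the 4 groups, with replicate 1 as a circle, replicate 2 as a square, the mean of the 2 as a line, NS in grey and IUGR in red; each panel has its own axis from 0. Ifi27, Ifit3 and Bst2 are lower in both IUGR libraries at postnatal day 3, Rsad2 has 1 high library at 11.9 CPM, and H2-K1 and B2m are higher in all week 8 libraries than in any of postnatal day 3.

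The lower level in IUGR was then compared between the ages. Both IUGR libraries were below both NS libraries at both ages for 5 members, Irf7, Irf9, Usp18, Rsad2 and Rtp4. They are 14.7% of the 34, against 2.09% of all tested genes, and make up 31.2% of those separated at postnatal day 3 and 55.6% of those separated at week 8. IUGR was below NS in all 4 same-numbered pairs for 13 members (38.2%), against 9.01% of all tested genes. The difference between the IUGR effects at the 2 ages was called for no member and for 0.0% of genes by edgeR's quasi-likelihood test with Benjamini-Hochberg adjustment. At an unadjusted p under 0.05 there were 0 members and 82 genes in all, and DESeq2 on all libraries also called no member. The fitted difference of effects, week 8 minus postnatal day 3, had a median of 0.00 over the 31 tested members, with 15 below 0 and 16 above.

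The largest differences of effects were in low or unequal libraries. Rsad2 had -2.22 ± 1.56 (SE, unadjusted p of 0.2, edgeR) and Irf7 -1.23 ± 0.846 (SE, unadjusted p of 0.192, edgeR), lower at week 8 than at postnatal day 3. Without NS week 8 replicate 1, Rsad2 turned to 0.45 and Irf7 stood at -0.50. Ifit3 had 1.39 ± 1.13 (SE) and Bst2 0.88 ± 0.847 (SE), the opposite direction. With single libraries left out these ran from 0.59 (without IUGR week 8 replicate 1) to 2.97 (without NS week 8 replicate 1) for Ifit3 and from 0.27 to 1.81 for Bst2, at the same libraries. At week 8 Ifit3 had 19.7 and 3.95 CPM in the NS libraries against 11.5 and 4.53 CPM in the IUGR libraries, and Bst2 had 7.14 and 2.53 CPM in the NS libraries against 4.33 and 2.06 CPM in the IUGR libraries, so that both overlapped at this age. Irf9 (-0.67), Psmb9 (-0.76), Isg15 (-0.58) and Ifih1 (-0.56) each had a difference of effects under 2 standard errors, and the last 3 turned sign when single libraries were left out.

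Between postnatal day 3 and week 8 the class I genes H2-K1 and B2m rose in the hippocampus of both groups, as did Ifi27 and Lgals3bp. The pooled comparisons of the ages are not of age alone. They set groups with 1 library of female pattern each against week 8 groups of male pattern only. Within replicate 1, where Xist was low at both ages, H2-K1, B2m, Ifi27 and Lgals3bp were also higher at week 8 in both groups. The part of sex in the changes with age was not tested. In NS, 4 members rose and none fell (12.9% of the 31 tested) by edgeR's quasi-likelihood test with Benjamini-Hochberg adjustment, against 14.1% of all tested genes called, 7.7% as higher and 6.44% as lower. In IUGR, 5 members rose and none fell (16.1%), against 16.8% called, 9.34% as higher and 7.48% as lower. These shares are near those of all genes. DESeq2 on all libraries called 9 members in NS and 8 in IUGR, against 19.1% and 21.3% of all genes. The fitted log2 difference, week 8 minus postnatal day 3, was above 0 for 29 of 31 members in NS, with a median of 1.10 against 0.04 over all tested genes, and for 27 of 31 in IUGR, with a median of 1.00 against 0.02. All 4 week 8 libraries were above all 4 postnatal day 3 libraries for 11 of the 34 members (32.4%), against 21.1% of all tested genes. These were Irf1, Ifit3, Oasl2, Ifi27, Xaf1, Igtp, H2-K1, B2m, Psmb9, Cxcl10 and Lgals3bp. No member had all 4 below, against 26.0% of all tested genes.

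H2-K1 went from between 6.6 and 6.79 CPM in the 4 libraries of postnatal day 3 to between 19.5 and 33.7 CPM at week 8. It rose by 2.11 ± 0.283 (log2, SE) in NS (adjusted p of 0.00864) and by 1.87 ± 0.281 in IUGR (adjusted p of 0.00997) in edgeR's quasi-likelihood test. B2m went from between 28.2 and 35.9 CPM to between 67.0 and 89.9 CPM. It rose by 1.24 ± 0.232 (log2, SE) in NS (adjusted p of 0.0204, edgeR) and by 1.56 ± 0.233 in IUGR (adjusted p of 0.00996). In both genes the ages were separated by a wide gap. H2-D1, with between 5.77 and 7.66 CPM at postnatal day 3 and between 7.44 and 9.29 CPM at week 8, overlapped and was not called. Reads of H2-K1, H2-D1 and their many relatives can match more than 1 gene, so their values are uncertain to that extent.

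Ifi27 went from 11.4 and 8.73 CPM to 65.9 and 34.1 CPM in NS and from 5.22 and 4.13 CPM to 36.9 and 24.5 CPM in IUGR. It rose by 2.34 ± 0.398 (log2, SE) in NS (adjusted p of 0.0161, edgeR) and by 2.82 ± 0.409 in IUGR (adjusted p of 0.00929). Lgals3bp was the remaining member called in both groups, with 1.82 ± 0.429 in NS (adjusted p of 0.0384, edgeR) and 1.99 ± 0.436 in IUGR (adjusted p of 0.0279). Ifit3 was called in IUGR, with 3.50 ± 0.874 (adjusted p of 0.0399, edgeR), and in NS it had 2.11 ± 0.8 (adjusted p of 0.126), with a range of 0.54 to 2.84 when single libraries were left out. That difference between groups is the difference of effects of Ifit3 given for the 2 ages, which was not called. The calls depended on the libraries of postnatal day 3: with either NS library of that age left out no member was called in NS, and with either IUGR library left out none was called in IUGR, while the 5 values stayed above 1.

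The largest fitted changes among members below the threshold were in effectors. In NS, Rsad2 had a log2 difference of 2.51 ± 1.05 (SE, adjusted p of 0.154, edgeR), and -0.15 without NS week 8 replicate 1. Isg15 had 2.45 in NS (adjusted p of 0.198, edgeR) and 1.87 in IUGR (adjusted p of 0.315), where its week 8 counts were 23 and 28 in the NS libraries against 15 and 8 in the IUGR libraries. With single libraries left out the value of Isg15 in NS ran from 1.50 to 7.69. Ifit1 had 2.41 ± 1.3 in NS and 2.54 ± 1.36 in IUGR, the latter turning to -0.39 without IUGR week 8 replicate 1. Oasl2 had 1.91 ± 0.567 in NS with an adjusted p of 0.0707 (edgeR). Xaf1, a promoter of cell death, had 1.31 and 0.628 CPM in the NS libraries against 0.624 and 1.1 CPM in the IUGR libraries at postnatal day 3, and 4.83 and 2.69 CPM and 4.53 and 1.85 CPM at week 8. Its log2 difference was 1.98 in both groups. Igtp, a membrane-binding GTPase whose exons overlap those of Irgm2, had 0.894 and 1.37 CPM in the NS libraries against 1.19 and 0.717 CPM in the IUGR libraries at postnatal day 3, and 5.14 and 3.21 CPM and 5.14 and 2.12 CPM at week 8. In Xaf1 and Igtp every week 8 library lay above every library of postnatal day 3. Ifit2 went the other way in its fitted values, with -0.63 in NS and -0.88 in IUGR, and only its replicate 2 libraries of week 8 were low, at 6.26 and 5.69 CPM against 22.8 and 17.7 CPM in replicate 1.

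By replicate number, the median change of the members from postnatal day 3 to week 8 in log2(CPM + 1) was 1.06 in NS replicate 1, where 33 of the 34 were higher, and 0.33 in NS replicate 2, where 24 were. In IUGR it was 0.83 in replicate 1, where 30 were higher, and 0.10 in replicate 2, where 21 were higher and 1 equal. Nothing in the labels links the replicate numbers across the ages. In replicate 2 the ages also differed in Xist, Y-linked and Rpph1 counts, so the medians of replicate 2 are not of age alone. Over the same interval the microglial markers had a 2.8-fold higher mean sum and the astrocyte markers a 4.36-fold higher one, whereas the border macrophage markers stood at 0.371 of their level at postnatal day 3. The part of these cell types in the members' change was not tested.

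The rest of the pathway was examined in 101 further genes, in lists of ligands, receptors and signalling, sensing, other induced genes, and the class I and class II pathways. These lists too were drawn up with earlier results known. Of 8 interferon ligands, none passed the count filter, and none had more than 6 counts over all 8 libraries. Ifng, the gene of interferon gamma, had 0 counts in each library, and Ifnb1 had 1 count in all. None of the listed genes was called between IUGR and NS at either age. Of the 34 tested genes among the other induced genes, 27 had a fitted difference below 0 at postnatal day 3 (median -0.35) and 30 at week 8 (median -0.50), values close to those of the members. The 16 receptor and signalling genes had medians of 0.05 and 0.00, and the 13 tested class I pathway genes outside the members -0.12 and -0.17. Of those class I genes, 4 had both IUGR libraries below both NS libraries at postnatal day 3, Tap2, Tapbp, Psme2 and H2-Q4. The share over all tested genes was 16.6%. The 13 sensing genes had medians of -0.04 and -0.37, with 9 and 10 below 0. The 7 class II genes had medians of -0.43 and -0.53, with 6 and 4 below 0. Cd74, the class II invariant chain, had 9.75 and 1.58 CPM in the NS libraries against 5.61 and 1.30 CPM in the IUGR libraries at week 8, higher in replicate 1 of both groups. Tapbp and Psme2 were chosen after their values were seen.

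Single genes of these lists had the smallest p. Ifitm1, a membrane protein that hinders viral entry, had 3.64 and 4.45 CPM in the NS libraries against 1.3 and 1.54 CPM in the IUGR libraries at postnatal day 3, a log2 difference of -1.50 ± 0.452 (SE, unadjusted p of 0.0135, edgeR). Mavs, the adaptor through which RIG-I and MDA5 signal, had 6.74 and 6.96 CPM in the NS libraries against 3.86 and 3.64 CPM in the IUGR libraries at that age, a difference of -0.87 ± 0.271 (SE, unadjusted p of 0.0158, edgeR). The groups were well separated in both genes, and the adjusted p was 1.0 in edgeR's test for each. At week 8 H2-Q4, a non-classical class I gene, had 4.3 and 2.26 CPM in the NS libraries against 1.08 and 0.891 CPM in the IUGR libraries, a difference of -1.64 ± 0.508 (SE, unadjusted p of 0.0155, edgeR). Slfn8, of the Schlafen family, had 2.23 and 1.84 CPM in the NS libraries against 0.609 and 0.343 CPM in the IUGR libraries, a difference of -2.0 ± 0.596 (SE, unadjusted p of 0.0131, edgeR).

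Between the ages, calls in these lists went in both directions. Over all tested genes, 14.1% were called in NS and 16.8% in IUGR. Of the 16 receptor and signalling genes, 3 rose and 3 fell in NS and 4 rose and 3 fell in IUGR. Irf2, an antagonist of Irf1, rose by 2.26 ± 0.394 (log2, SE) in NS (adjusted p of 0.017, edgeR) and 2.83 ± 0.401 in IUGR (adjusted p of 0.00863), and Socs3, a feedback inhibitor of Janus kinases, fell by 2.02 in NS and 2.07 in IUGR on the log2 scale. Ifnar1, a chain of the type I receptor, fell in both groups, from between 79.1 and 85.2 CPM to between 42.2 and 48.8 CPM. Of the sensing genes, Tlr3, the endosomal receptor of double-stranded RNA, rose by 2.93 ± 0.319 in NS (adjusted p of 0.00572, edgeR) and 2.80 ± 0.317 in IUGR (adjusted p of 0.00521). Of 13 tested class I pathway genes, Tap2, the partner of Tap1 in the peptide transporter, rose by 2.44 in NS and 2.03 in IUGR, and Psme1, a proteasome activator, fell by 1.23 and 1.02. Of 7 class II pathway genes, 1 rose in each group, Ctss, a cathepsin, by 2.04 in NS and 1.71 in IUGR. Of the 34 tested other induced genes, 2 rose in NS, Ifit3b and Uba7, and 1 in IUGR, Ifit3b, while Ifitm2 fell in both.

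Members with and without the ISRE core can be set side by side. The median log2 difference at postnatal day 3 was -0.44 over the 14 tested members with a match and -0.24 over the 13 tested members with a window and no match. At week 8 the medians were -0.49 and -0.34. Both IUGR libraries were below both NS libraries at postnatal day 3 for 8 members with a match and 3 without, against 16.6% of all tested genes. The class I members H2-K1, H2-D1, Tap1, Psmb8 and Psmb9 had a window without a match, and none of them separated the groups at that age. Match and role therefore overlap and cannot be told apart here. From postnatal day 3 to week 8 in NS the medians were 1.10 and 1.10. These are descriptions of the members found in the window table, in which Ifi27, Mx1, Mx2, Usp18, Rtp4 and Zbp1 had no entry. Of the members without an entry, all but Zbp1 were lower in both IUGR libraries than in both NS libraries at postnatal day 3.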

How the data were processed

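Ribosomal RNA was removed from Trizol-extracted total RNA, cDNA was primed at random and libraries were sequenced in paired ends, per the labels' protocols. Per the submitters' processing notes, build mm10 was used with the tools HISAT2 2.1.0, featureCounts 1.6.1, cutadapt 1.16, DESeq2 1.26.0 and SAMtools 1.9. The sources used here give neither the strand setting nor how multi-mapping reads were counted, so genes with exons overlapping another gene (11 members, 7 of them a gene in the count table) and near-identical families are uncertain. The authors deposited raw counts per gene for each age, and these were used. Their normalized tables were not. The gene lengths in the count tables served for RPKM only.

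All 8 libraries (13030277 to 18993050 counts) entered a single edgeR model (version 4.0.16, R 4.3.3) with a mean for each of the 4 groups, TMM factors from 0.95 to 1.03 and the default count filter (15999 genes kept; 3847 of 24421 had no count). Contrasts were tested with the quasi-likelihood F test and Benjamini-Hochberg adjustment over all genes, with a threshold of 0.05, on a script tested on simulated data. The SE is the log2 fold change over the square root of F. CPM is the count over the library total. The alternatives were DESeq2 1.42.0, other scalings, no filter, a replicate block, single ages and libraries left out. Those with both libraries of 1 number of 1 age left out were chosen after seeing the data. The members and lists were chosen with earlier results of these data known. Values per library are given for members that passed a test and for up to 8 members with the largest log2 difference per comparison among those with a mean of at least 1 CPM. Members named beyond that rule, such as Mx2, Ifih1, Irf1, Stat2, H2-D1, Tap1 and Ifit2, were chosen after their values were seen or to account for the whole list. A gene that the rule names is not reported here.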

Additional observations from a re-analysis of the deposited data

How the results depend on the processing

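Each named log2 value and each count was recomputed under the alternatives. Of the recomputed values of named members 744 kept direction and side of the threshold, 46 were no longer and 16 newly past it, and 16 reversed. No alternative called a member at postnatal day 3, at week 8 or in their difference. The members' median at postnatal day 3 stayed between -0.37 and -0.55. In NS from postnatal day 3 to week 8 DESeq2 on all libraries called 9 members in place of 4, leaving out single libraries gave 0 to 6, leaving out both libraries numbered 1 or both numbered 2 of week 8 gave 9 and 19, and leaving out those of postnatal day 3 gave 0 and 0. In IUGR the corresponding counts were 8 in place of 5, 0 to 6, 9 and 17, and 0 and 0. A group left with 1 library was taken to have the spread of the other groups, and the cause of these changes was not tested.

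Lgals3bp at postnatal day 3 reversed to 0.07 without both libraries numbered 2 of that age. When single libraries were left out, the week 8 difference ran from -1.42 to 0.13 for Psmb9, from -3.72 to 1.07 for Ifit1 (0.12 without IUGR replicate 2) and from -1.14 to 0.10 for Oasl2. The difference between ages ran from -3.10 to 0.45 for Rsad2, from -1.35 to 0.22 for Psmb9, from -1.89 to 0.57 for Ifih1 (0.13 without IUGR week 8 replicate 2) and from -5.83 to 0.42 for Isg15 (0.37 without NS day 3 replicate 1), which had 1.35 without both libraries numbered 1 of postnatal day 3. The change from postnatal day 3 to week 8 ran from -0.15 to 3.39 for Rsad2 in NS and from -0.39 to 3.43 for Ifit1 in IUGR, and was -0.15 and -0.39 again without both libraries numbered 1 of week 8. The median difference between ages ran from -0.72 to 0.45.

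With 2 replicate numbers, these were not taken as pairs in the main fit. The replicate differences of NS and IUGR across 15999 genes had r = -0.0747 at postnatal day 3 and 0.854 at week 8. At week 8 the 2 groups thus shared much of the replicate difference, which the main fit counts as spread between libraries. With the replicate block the members called were 0 at postnatal day 3, 0 at week 8, 0 for their difference, 4 in NS and 6 in IUGR between ages, and the medians were -0.41 at postnatal day 3 and -0.46 at week 8. For IUGR against NS the block had a separate term at each age. Between ages a single term was shared by both, although the replicate differences were alike in the groups only at week 8. Few reads limit Mx1, Zbp1, Cxcl10, Mx2, Isg15 and Ifi44 most: 4 members had under 10 counts in every library of postnatal day 3, and 1 in every library of week 8.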
